A study of Homo sapiens with 4 samples.

Results

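Complement genes were followed in RNA-seq of the human leukemia line labelled NB4 after knockdown of LDB1 (LIM domain-binding protein 1, an adaptor of transcription complexes in blood cells). They were the 9, of the 28412 genes in the deposited table, that carry the gene names C3, C5, C1R, C1S, CFB, CFD, CD46, CD55 and CD59. The first 6 encode complement components, and the last 3 encode regulators on the cell membrane. The group was selected on the FPKM of C3, which was far higher in the knockdown libraries, so the contrast of C3 is given as a description with no test. The other 8 were taken by family, but from the same contrast.

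There were 4 libraries, 2 labelled SH_NC (here sh-NC), whose genotype is given as control, and 2 labelled SH_LDB1 (sh-LDB1), whose genotype is given as LDB1 knockdown. The source label calls the control cells untreated, while their titles name the control vector. By the methods of the study, the hairpins were delivered by a lentiviral Plko.1 vector. The study describes 3 hairpins against LDB1 and does not say which one was sequenced. No label says that the replicates came from separate cultures, so the p-values measure the spread between these libraries, which may be technical.

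Complement is a chain of plasma and membrane proteins that tags cells for removal and can punch holes in them. The C1 complex starts the classical pathway, factor B and factor D drive the alternative pathway, and both pathways cut C3, the central component, whose fragment C3b sticks to nearby surfaces. Cut C5 then starts the pore. A cell shields itself with CD46 (a cofactor for the destruction of C3b), CD55 (which takes apart the enzymes that cut C3 and C5) and CD59 (which stops the pore from forming). Liver cells make most plasma C3, and myeloid cells can make it locally.

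Levels are given as FPKM, a read density corrected for the length of the gene and the depth of the library, which allows comparison between genes. The libraries held 14303677 to 16556343 recovered reads, and log2(FPKM + 1) of the replicates correlated across genes at 0.985 in sh-NC and 0.984 in sh-LDB1, against 0.856 to 0.863 between groups. LDB1 was at 135.1 and 120.1 FPKM in the controls and 10.2 and 9.47 FPKM after knockdown, a fall to 7.73% of control (limma, adjusted p = 6.93e-05). The labelled cell type was set against its markers. Of 12 promyelocyte and neutrophil markers, 9 had a value, summing to 10.9 to 12.3 FPKM in sh-NC and 29.7 to 32.5 FPKM in sh-LDB1. LYZ, also listed below as a monocyte marker, made up 19.3 and 19.1 FPKM of the sh-LDB1 sums. ELANE (neutrophil elastase) was listed at 0 in 3 of the 4 libraries. Of the 5 markers tested, 3 were higher by the adjusted p (PRTN3, AZU1 and LYZ) and 0 lower, against 29.9% and 37.4% of all genes tested. The 14 erythroid markers summed to 3962 and 4151 FPKM in the controls and to 327.0 and 293.1 FPKM after knockdown. The data thus go against the label in part, since the red cell markers were far above those of the promyelocyte. In such bulk RNA, fewer cells of a type and less RNA per cell cannot be told apart.

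The bases just before 3 of the genes are shown for reference, because they are the members whose start regions had the longest stretches free of annotated exons. They come from RefSeq on GRCh38.p14, 5′ to 3′ on the strand of the gene, and capitals mark a match to one of the motifs searched. CD46 (chr1:207751788-207752036, plus strand) and CD59 (chr11:33736480-33736729, minus strand) are membrane regulators, and C1R (chr12:7092541-7092695, minus strand) is the classical pathway protease.
CD46: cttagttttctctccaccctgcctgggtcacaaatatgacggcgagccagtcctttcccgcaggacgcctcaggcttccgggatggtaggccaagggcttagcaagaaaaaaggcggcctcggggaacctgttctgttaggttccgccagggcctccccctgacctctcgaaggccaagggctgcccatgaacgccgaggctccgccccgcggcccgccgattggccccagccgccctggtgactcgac
CD59: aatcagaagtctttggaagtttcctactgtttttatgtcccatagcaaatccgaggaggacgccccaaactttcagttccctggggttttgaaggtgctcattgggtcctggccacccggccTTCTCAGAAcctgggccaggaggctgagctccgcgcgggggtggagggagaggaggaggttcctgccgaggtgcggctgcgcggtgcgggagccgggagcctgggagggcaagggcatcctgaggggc
C1R: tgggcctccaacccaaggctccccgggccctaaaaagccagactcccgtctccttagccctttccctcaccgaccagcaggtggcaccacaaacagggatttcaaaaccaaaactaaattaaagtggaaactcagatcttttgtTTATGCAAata

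A set of 6 motifs was searched on both strands in the 250 bases before the start of the 7 members with a RefSeq entry. The entries of C3 and C1S are missing. Of 27305 RefSeq promoter windows of this length, 9.4% held the motif of GATA factors, which was AGATAA. The E-box searched was CAGATG, held by 12.2%. The motif of C/EBP factors was TTGCNNAA, held by 9.1%. That of NF-kB was GGANTTTCC, held by 1.5%. That of AP-1 was TGANTCA, held by 6.6%. That of STAT factors was TTCNNNGAA, held by 6.8%. CD59 held the STAT letters at -128 to -120 from its start and C1R the C/EBP letters at -106 to -99. CFB held the STAT letters at -92 to -84 and CFD the E-box letters at -234 to -229. No GATA, NF-kB or AP-1 letters were found in these 7 windows, nor any of the motifs before CD46, CD55 or C5. These are matches of letters only.

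C3 (ENSG00000125730, chromosome 19, 6677704 to 6730562, minus strand, GRCh38) was at 0.312 and 0.187 FPKM in the controls and 33.9 and 32.6 FPKM after knockdown. The low control values rested on 42 and 23 reads, and the high ones on 4526 and 4106 reads. Both sh-LDB1 libraries thus stood far above both controls, by 104.6 to 181.1 times between single libraries. The mean went from 0.249 ± 0.0879 to 33.2 ± 0.947 FPKM (SD, n = 2 each), a ratio of 133.3. The log2 fold change of FPKM + 1 was 4.78 with a standard error of 0.0764, the third highest of the 13300 genes that reached a mean of 1 FPKM. C3 passed this filter only through its level in sh-LDB1. It overlaps a noncoding gene on its own strand (ENSG00000276980), with which its reads could be shared.

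CFD, factor D, cuts factor B once this is bound to C3b, and it was the most abundant component in the controls. It lies on chromosome 19 (859453 to 867884, plus strand). It was at 26.9 FPKM in each sh-NC library and at 35.6 and 38.7 FPKM in sh-LDB1, so that the groups did not overlap. The mean was 1.38 times the control, and CFD rose by 0.45 on the log2 scale (SE 0.0562, limma, adjusted p = 0.00242). The gene overlaps MED16 on the other strand, and the use of strand in the counting was not given.

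C1S and C1R are the paired serine proteases of the C1 complex and are neighbours on chromosome 12. Both were under the filter of 1 FPKM and so had no test in the comparison of all genes. C1S (6988259 to 7071032, plus strand) was at 0.469 and 0.388 FPKM in the controls and 1.08 and 1.21 FPKM after knockdown, on 37 to 118 reads, a ratio of means of 2.67. C1R (7080214 to 7092540, minus strand) was at 0.042 and 0.0461 FPKM in sh-NC, 4 reads each, and at 0.445 and 0.337 FPKM in sh-LDB1, on 42 and 30 reads, a ratio of 8.88. Both proteases were thus low, but each was higher in both sh-LDB1 libraries than in either control. Tested on the recovered reads with limma voom over the 20365 genes with at least 10 reads summed over the 4 libraries, a choice made after seeing the data, the log2 fold change was 1.40 for C1S (SE 0.23, adjusted p = 4.2e-05). For C1R it was 3.0 (SE 0.608) in the same fit, given with no p because C1R reached the 10 reads only through the sh-LDB1 libraries. In that fit, 16.2% of genes were higher and 11.7% lower past a fold of 2. Exons of C1R overlap C1RL on the same strand, and those of C1S overlap ENSG00000290146, so some of their reads are uncertain.

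CFB, factor B, carries the catalytic part of the alternative pathway's C3-cutting enzyme. It lies on chromosome 6 (31945650 to 31952086, plus strand) and was at 0.0124 and 0.0814 FPKM in the controls and 0.112 and 0.0926 FPKM after knockdown. These values rested on 1, 6, 9 and 7 reads, and the control libraries differed more from each other than the upper control did from the sh-LDB1 libraries. In the voom fit on genes of at least 10 reads the log2 fold change was 1.47 (SE 0.836). No p is given, because CFB also reached the 10 reads only through the sh-LDB1 libraries, and no difference is read from so few reads. Reads of CFB can also be shared with C2 and with a readthrough gene that spans both.

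C5 (chromosome 9, 120932987 to 121075195, minus strand), the component that starts the pore, was at 0.17 and 0.228 FPKM in the controls and 0.115 and 0.142 FPKM after knockdown. It was the only component whose mean was lower in sh-LDB1, at 64.3% of control. On 12 to 22 reads per library, the difference did not pass the test on reads (voom, log2 fold change -0.61, SE 0.436, adjusted p = 0.25). Exons of C5 overlap CNTRL on the other strand, so some of its reads are uncertain too.

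**Figure D1:**
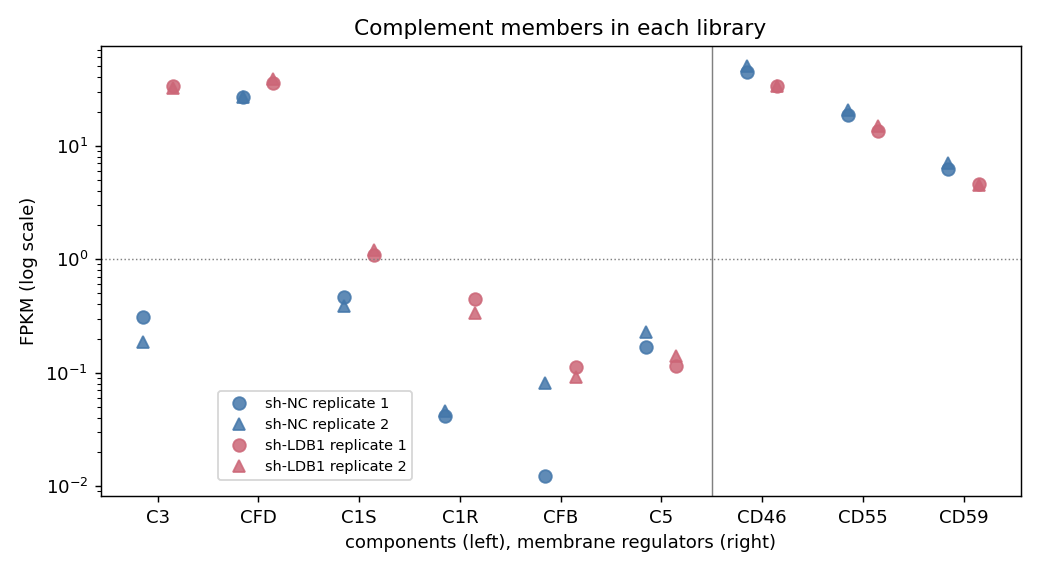
Level of the 9 members in each library, in FPKM on a log scale, with a point per library (blue sh-NC, red sh-LDB1; circle replicate 1, triangle replicate 2), components left of the vertical line and membrane regulators right of it. C3 moves from 0.187 to 0.312 FPKM in sh-NC to 32.6 to 33.9 FPKM in sh-LDB1, while the 3 regulators lie somewhat lower in sh-LDB1; the dotted line is the filter of 1 FPKM on the mean.

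All 3 membrane regulators were lower in the knockdown libraries, each to about 70% of its control level and none past a fold of 2. CD46 (chromosome 1, 207752037 to 207795513, plus strand) was at 44.4 and 50.1 FPKM in the controls and 34.0 and 33.4 FPKM after knockdown. It fell to 71.4% of control (log2 fold change -0.47, SE 0.0694, limma, adjusted p = 0.00404), and it was the most abundant of the 9 genes in sh-NC. CD55 (chromosome 1, 207321519 to 207386804, plus strand) was at 18.7 and 20.7 FPKM in the controls and 13.4 and 14.8 FPKM after knockdown. It fell to 71.7% of control (log2 fold change -0.45, SE 0.077, limma, adjusted p = 0.00652). CD59 (chromosome 11, 33703010 to 33736479, minus strand) was at 6.23 and 7.08 FPKM in the controls and 4.63 and 4.50 FPKM after knockdown. It fell to 68.6% of control (log2 fold change -0.46, SE 0.0786, limma, adjusted p = 0.00674). For each of the 3 the groups did not overlap, and the controls were spread more widely than the knockdown libraries. Exons of CD59 overlap ENSG00000284969 on the same strand, and those of CD46 overlap MIR29B2CHG on the other strand, so some of their reads are uncertain. Scaled to equal sums of FPKM, which moved the median of all tested genes by 0.14 from -0.08 to 0.06, the log2 fold changes were -0.30, -0.29 and -0.31, all below an adjusted p of 0.05.

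Of the 9 members, 5 passed the filter (C3, CFD and the 3 regulators). Past a fold of 2 there was 1 higher member, C3, which fixed the choice of the group, and 0 lower, where 9.5% and 10.3% of the 13300 tested genes were called higher and lower. By the adjusted p alone 2 were higher and 3 lower, against 29.9% and 37.4% of all genes tested. The groups did not overlap for any of the 9, and this was also so for 84.6% of all genes tested. That share leaves out genes under the filter, such as C5, C1R, C1S and CFB. Nothing is read from these counts, as the contrast also chose the group.

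The components were then set against the membrane regulators as sums. The 6 components summed to 27.9 FPKM in each sh-NC library and to 71.2 and 73.1 FPKM in sh-LDB1. The 3 regulators summed to 69.3 and 77.8 FPKM in the controls and to 52.0 and 52.7 FPKM after knockdown. The regulators thus exceeded the components in both controls, and with C3 counted the components exceeded the regulators in both knockdown libraries. Without C3, the components summed to 27.6 and 27.7 FPKM in the controls and to 37.3 and 40.5 FPKM after knockdown, below the regulators in all 4 libraries. The reversal therefore rests on C3, whose rise chose the group. The ratio of components to regulators was 0.403 and 0.358 in the controls and 1.37 and 1.39 after knockdown. C3 made up 1.12% and 0.673% of the component sum in the controls and 47.6% and 44.6% after knockdown. CFD made up 96.4% and 96.7% of it in the controls and 49.9% and 53.0% after knockdown. The remaining 4 components together stayed under 1.8 FPKM in every library.

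**Figure D2:**
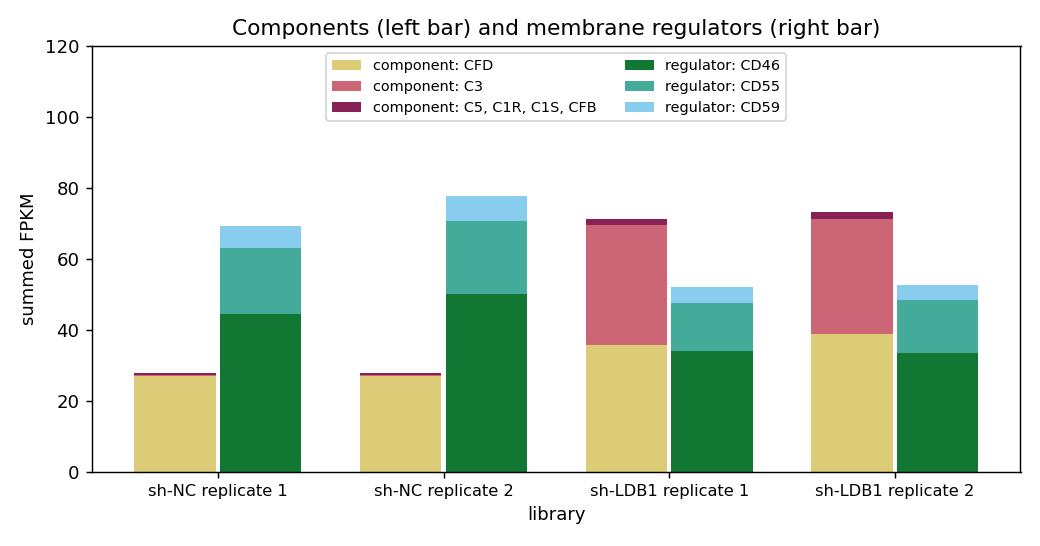
Summed FPKM of the complement components (left bar: CFD, C3, and C5, C1R, C1S and CFB together) and of the membrane regulators (right bar: CD46, CD55, CD59) in each of the 4 libraries. The component bar grows from 27.9 FPKM in the controls to 71.2 and 73.1 FPKM after knockdown, with C3 at 47.6% and 44.6% of it, while the regulator bar shrinks from 69.3 and 77.8 FPKM to 52.0 and 52.7 FPKM.

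In order of mean level in sh-NC, CD46 was followed by CFD, CD55 and CD59, and all components other than CFD were below 1 FPKM. In sh-LDB1, CFD, CD46 and C3 lay close together, at 37.1 ± 2.24, 33.7 ± 0.381 and 33.2 ± 0.947 FPKM (SD, n = 2 each). The library values of CD46 and C3 interleaved, so these neighbours did not differ beyond their spread, while both CFD libraries stood above them. CD55, CD59 and C1S followed, and C1R, C5 and CFB stayed below 0.5 FPKM.

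Genes with the most similar pattern were sought by the Euclidean distance of log2(FPKM + 1) over the 4 libraries. For C3 they were KLF2 (distance 0.508), PTGES (0.541), SELENOM (1.157), ACVRL1 (1.179) and ANGPTL4 (1.358). KLF2 was at 0.398 and 0.639 FPKM in the controls and 29.9 and 31.4 FPKM after knockdown, thus near C3 in all 4 libraries. For CFD the nearest genes were MEPCE (0.08), PDLIM7, CCNY, DDIT3 and SPCS2, and for CD59 they were MTRR (0.067), RHBDF1, SLC25A21, EXOC6 and GTPBP8. The nearest genes of CFD and CD59 were much closer to them than those of C3 were to C3.

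Other genes of the complement system were examined to place the members. Of 52 further complement genes, 34 had a value and 13 were tested. Past a fold of 2, 6 were higher and 2 lower, against 9.5% and 10.3% of all tested genes. By the adjusted p alone 8 were higher and 3 lower, against 29.9% and 37.4%. Of the 6 higher genes, 5 had a control mean below 1 FPKM and so passed the filter only through sh-LDB1, which picks the tested genes toward rises. The median log2 fold change of the 13 was 0.59, compared with -0.08 over all tested genes, and without the filter it was 0.20 over the 34 genes with a value, compared with 0.02 over all genes.

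Among 22 other components, 11 had a value and 3 were tested. C1RL, a protease related to C1R, rose by 0.59 (SE 0.0924, limma, adjusted p = 0.00488), while C8G (0.24, adjusted p = 0.308), a part of the pore that was named as the only other gene tested, and COLEC11 (-0.21, adjusted p = 0.112), a lectin that starts the pathway, did not pass. The others were below 1 FPKM on average. C2, the partner of C4 in the classical enzyme, was at 0.101 and 0.0735 FPKM in the controls and 0.609 and 0.657 FPKM after knockdown, and CFP, properdin, which steadies the alternative enzyme, was at 0.209 and 0.145 FPKM and at 1.02 and 0.953 FPKM. On recovered reads their log2 fold changes were 2.79 and 2.45 (voom, adjusted p = 5.36e-05 and 6.87e-06), and they are named after their values were seen. C4A and C4B are near-identical copies, so their levels are uncertain. C1QA, C1QB, C1QC and FCN1 were not analysed here.

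Of 20 other regulators, 13 had a value and 5 were tested. All 5 passed the adjusted p, 3 higher and 2 lower, where 29.9% and 37.4% of all tested genes were higher and lower. Of these 5, 3 had a control mean below 1 FPKM. CLU, clusterin, which binds the forming pore in fluid, was at 0.224 and 0.297 FPKM in the controls and 8.50 and 8.92 FPKM after knockdown (log2 fold change 2.95, SE 0.088). VTN, vitronectin, with the same role, was at 0.204 and 0.168 FPKM in the controls and 3.94 and 3.43 FPKM after knockdown (log2 fold change 1.98). CLU and VTN passed the filter only through sh-LDB1, so no p is given for them. C1QBP, which binds the globular heads of C1q and is mostly a mitochondrial protein, fell from 117.4 and 124.3 FPKM to 35.0 and 35.4 FPKM (log2 fold change -1.75). CR1L, a relative of the C3b receptor CR1, fell by 1.71 on the log2 scale, and its reads can be shared with CR1. CSMD1, a membrane protein that inhibits complement, was higher by 0.46, from a control mean of 0.964 FPKM. This mean was also under the filter, so no p is given. CSMD1 passed in the main setting, and no longer passed when any 1 library was left out. CFI was not analysed here.

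All 10 complement receptors had a value, and 5 were tested. ITGAX and ITGAM, the alpha chains of the C3 fragment receptors CR4 and CR3, were higher by 2.75 and 2.51 on the log2 scale. ITGAX was at 0.0437 and 0.0863 FPKM in the controls and 6.22 and 6.11 FPKM after knockdown. ITGB2, the beta chain that both need on the surface, stayed below 1 FPKM in every library, at 0.155 and 0.0499 FPKM in the controls and 0.624 and 0.545 FPKM after knockdown. C3AR1, the receptor of the C3a fragment, rose from 2.42 and 2.78 FPKM to 5.94 and 6.93 FPKM (log2 fold change 1.04, SE 0.103, limma, adjusted p = 0.00115). LRP1, a scavenger receptor, was higher by 2.33. ITGAX, ITGAM and LRP1 passed the filter only through sh-LDB1, so no p is given for them. CD93, once taken for a C1q receptor, fell by 0.55 (limma, adjusted p = 0.0211). It no longer passed without sh-NC replicate 1, without sh-NC replicate 2 or without sh-LDB1 replicate 2. CR2, the C3d receptor of B cells, was at 1.73 and 1.43 FPKM in the controls and 0.102 and 0.0271 FPKM after knockdown, and with ITGB2 it was chosen after its values were seen.

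**Figure D3:**
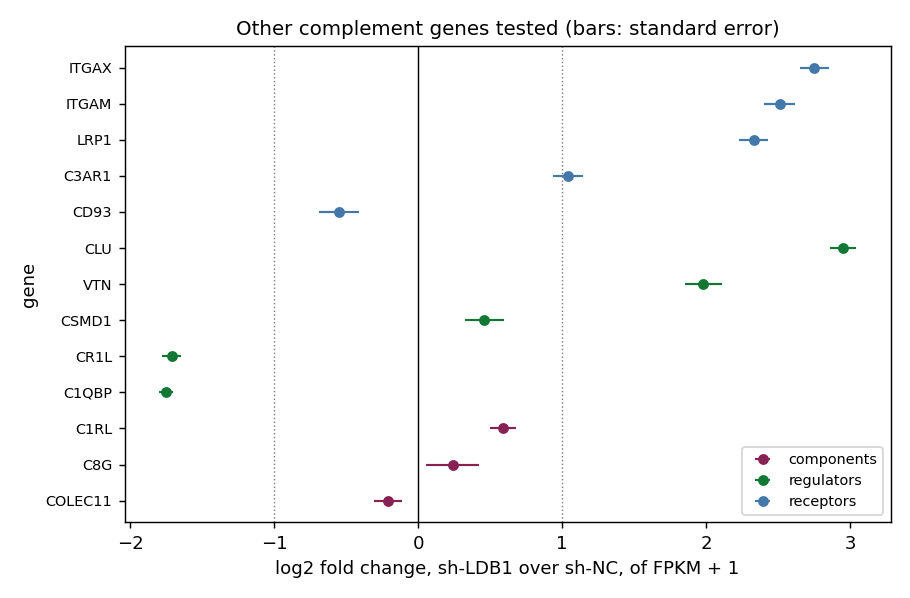
Log2 fold change of FPKM + 1, sh-LDB1 over sh-NC, for the 13 tested complement genes other than the members, with bars for the standard error (limma, 2 libraries per group) and colours for components, regulators and receptors. ITGAX, ITGAM, LRP1, C3AR1, CLU and VTN lie beyond the dotted line of a fold of 2 on the right, and CR1L and C1QBP beyond that on the left.

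Markers of other cells that make complement were measured beside these changes. Of 16 monocyte and macrophage markers, 8 had a value, and they summed to 6.63 and 6.11 FPKM in the controls and to 20.8 and 21.0 FPKM after knockdown. LYZ, lysozyme, which promyelocytes also express, accounted for 19.3 and 19.1 FPKM of the latter. CSF1R was at 0.06 and 0.0263 FPKM in the controls and 0.315 and 0.321 FPKM after knockdown, and CD4 at 0.0944 and 0.163 FPKM and at 0.449 and 0.649 FPKM. CD14 was at 0.164 and 0.108 FPKM in the controls and 0.331 and 0.35 FPKM after knockdown. All 3 were higher in both sh-LDB1 libraries than in either control, on 2 to 45 reads. The groups did not overlap for 84.6% of all genes tested, a share that leaves out genes under the filter of 1 FPKM, such as these 3. FCGR3A overlapped, at 0.209 and 0.138 FPKM in the controls and 0.0422 and 0.201 FPKM after knockdown. The markers named here fall outside the rule for named genes. CD68 was at 0.141 and 0.062 FPKM in the controls and listed at 0 in both sh-LDB1 libraries. Of 14 hepatocyte markers, 7 had a value, summing to 0.712 and 0.714 FPKM in the controls and to 0.382 and 0.371 FPKM after knockdown, so the liver's markers were near 0 where C3 was high. Of 10 fibroblast markers, 7 had a value, summing to 0.339 and 0.263 FPKM in the controls and to 2.81 and 2.52 FPKM after knockdown, with COL1A1 at 1.06 and 1.18 FPKM in sh-LDB1. The part of the monocyte, fibroblast and erythroid markers in the changes of the complement genes was not tested.

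CD55 and CD59 are held on the membrane by a glycosylphosphatidylinositol (GPI) anchor, while CD46 spans the membrane. The genes that build this anchor were therefore examined. Of 25 listed, 24 had a value and 23 were tested. Past a fold of 2, 0 were higher and 1 was lower, and by the adjusted p alone 1 was higher and 10 were lower, with a median of -0.22. Over all tested genes 9.5% were higher and 10.3% lower past the fold. By the adjusted p alone 29.9% were higher and 37.4% lower, and the 10 lower of 23 are near that last share. This balance turned with scaling: at equal sums 5 were higher and 4 lower by the adjusted p, with a median of -0.08. Over all 13300 tested genes it turned too, with 4876 higher and 4047 lower at equal sums and a median of 0.06. The turn was thus not particular to the GPI anchor genes. DPM2, which anchors the mannose donor enzyme and also takes part in the first step of the anchor, fell from 28.2 and 26.1 FPKM to 9.96 and 10.3 FPKM (log2 fold change -1.34, SE 0.058, limma, adjusted p = 0.000152). PIGA, the gene lost in paroxysmal nocturnal hemoglobinuria, was at 5.69 and 6.36 FPKM in the controls and 6.12 and 6.25 FPKM after knockdown, with groups that overlapped. Among the genes of the complex that attaches the anchor, GPAA1 rose from 49.8 and 56.3 FPKM to 74.5 and 76.3 FPKM (0.50, adjusted p = 0.00351), and PIGU fell from 6.44 and 5.72 FPKM to 2.88 and 2.57 FPKM (-0.93, adjusted p = 0.00113). PIGS fell by 0.30, which did not pass at equal sums (-0.13, adjusted p = 0.0653). PIGA and PIGU were chosen after their values were seen.

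The factors known to induce C3 and other complement genes were examined as well. Of 28 listed, 26 had a value and 20 were tested, with 7 higher and 0 lower past a fold of 2, and 10 higher and 5 lower by the adjusted p alone (median 0.45, and 0.23 without the filter). Over all tested genes these shares were 9.5% and 10.3% past the fold, and 29.9% and 37.4% by the adjusted p. RELB and IL6R, among the 7, passed the filter only through sh-LDB1, so no p is given for them. CEBPB and CEBPD, factors of the acute phase that bind the C3 promoter, rose by 1.98 and 2.23 (limma, adjusted p = 6.93e-05 and 9.45e-05). CEBPB went from 19.9 and 20.8 FPKM to 83.5 and 82.6 FPKM, and CEBPD from 5.90 and 6.66 FPKM to 33.4 and 32.7 FPKM. Of the 2 subunits of the alternative NF-kB pathway, NFKB2 rose by 1.09 and RELB was higher by 2.02. RELA (0.24, limma, adjusted p = 0.0555) did not pass. NFKB1 fell from 3.94 and 4.4 FPKM to 1.52 and 1.88 FPKM (-0.94, SE 0.11, limma, adjusted p = 0.00196). STAT2 rose by 1.59 and STAT3 fell by 0.85. Of the receptors, TNFRSF1A rose by 1.85 and IL6R was higher by 1.81. The inducing cytokines were under the filter. IL6 lay between 0.627 and 0.721 FPKM in the 4 libraries. IL1B was at 0.0599 and 0.175 FPKM in the controls and 1.13 and 1.24 FPKM after knockdown, and TNF at 0.0737 and 0 FPKM and at 1.56 and 1.18 FPKM. These 3 cytokines and NFKB1 were chosen after their values were seen.

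Proteases that can cut C3 or C5 were the last group. Of 9 listed, 6 had a value and 4 were tested, and all 4 rose, 2 of them past a fold of 2, with a median of 1.29. By the adjusted p alone 29.9% of all tested genes were higher, and 9.5% past the fold. CTSB, cathepsin B, went from 30.1 and 29.9 FPKM to 138.1 and 138.0 FPKM (log2 fold change 2.17, SE 0.0372, limma, adjusted p = 6.77e-05). CTSD rose by 1.65. CTSL, cathepsin L, which can cut C3 inside cells, went from 70.2 and 63.0 FPKM to 127.8 and 126.6 FPKM, a rise of 0.93 (adjusted p = 0.000427). FURIN, which processes the C3 precursor, rose by 0.68. F2 and PLG, the precursors of thrombin and plasmin, were not analysed here.

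**Figure D4:**
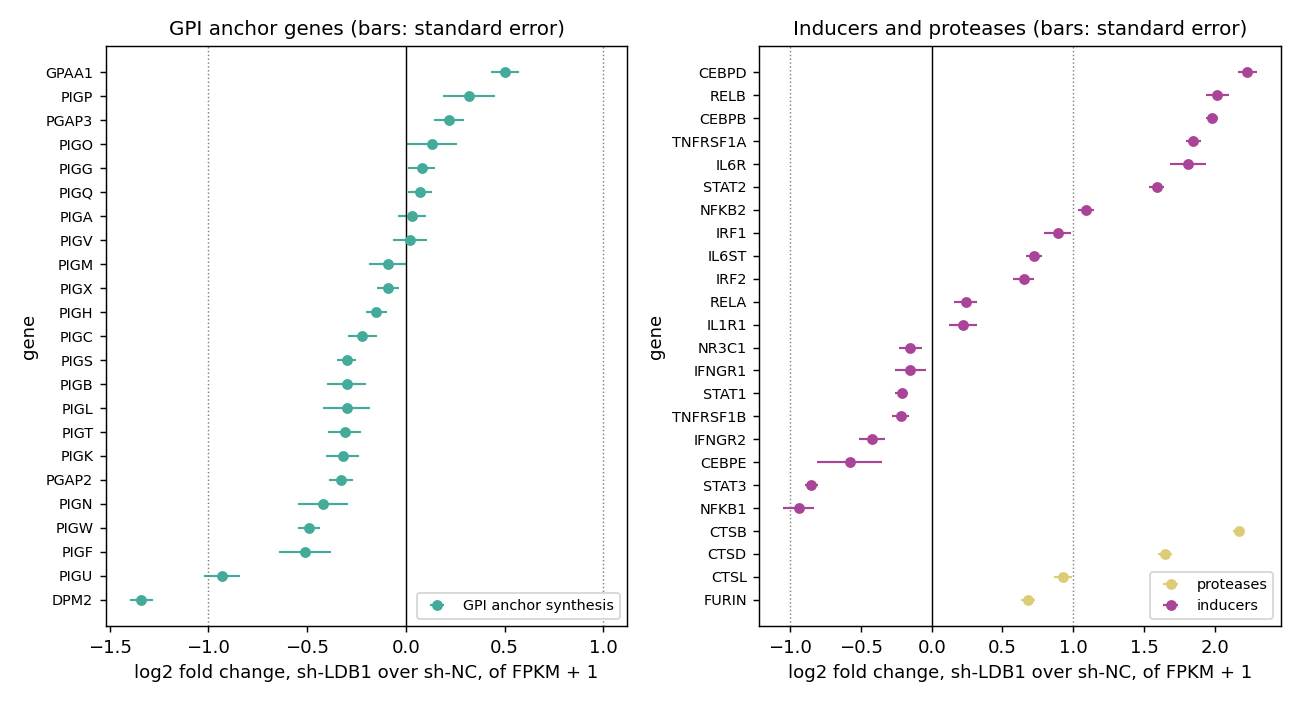
Log2 fold change of FPKM + 1, sh-LDB1 over sh-NC, for the tested GPI anchor genes (left) and for the inducers and proteases of complement (right), with bars for the standard error (limma, 2 libraries per group) and dotted lines at a fold of 2. Most GPI anchor genes lie within 0.5 of 0 and DPM2 lies at -1.34, while CEBPD, CTSB, RELB and CEBPB lie near 2.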

How the data were processed

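RNA-seq libraries were made from total RNA with an Illumina TruSeq kit. The authors filtered the reads, mapped them (HISAT2 2.0.5 and hg38 by the submitters' processing notes) and deposited 1 table of FPKM per gene and library, with no pooling of replicates. The counting tool, gene annotation and use of strand are not given in the sources used here. The table held 28412 genes and 0 columns of no sample. Groups and replicate numbers came from the sample titles. The labels name no batch.

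The design allowed for counts, and since the values were FPKM, limma on a log scale was used. The 13300 genes that reached a mean of 1 FPKM were compared on log2(FPKM + 1), a scale that understates the change of low genes, with limma 3.58.1 in R 4.3.3 (eBayes with trend) and Benjamini-Hochberg adjustment over all tested genes. A gene was called at an adjusted p below 0.05 and a fold above 2 or below 0.5 on this scale. "Passed" means the adjusted p alone, which is also the test behind "rose" and "fell". Other steps used Python 3.11.15, numpy 2.4.6 and pandas 2.3.3.

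Reads were recovered from the steps of the FPKM values, whole within 1e-05, with lengths from GENCODE release 44. This gave whole reads for 98.9% of annotated genes, and for a gene of unmatched length they are the fewest reads that fit. They cover counting error only. The steps were tested on simulated data. The members and gene lists were chosen with earlier results of these data known. Named genes were the members, LDB1, up to 8 called genes per list by size of change, the 2 uncalled genes of highest level per list, and the 5 genes nearest to C3, CFD and CD59. Exceptions are stated, and C8G is one. Positions are from GENCODE. A further complement gene is not reported here and was left out of the lists.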

Additional observations from a re-analysis of the deposited data

How the results depend on the processing

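For C3 and 33 other named genes recomputed under the alternatives, no direction changed. C1S, C1R, CFB and C5 were recomputed only without the filter and with voom on genes of at least 10 reads, and the genes nearest to C3, CFD and CD59 and those chosen after their values were seen were not recomputed. Of 330 values of the 33 genes, 315 stayed on the same side of the threshold and 15 were lost or gained, those of CSMD1, CD93, PIGS and RELA. The log2 fold change of C3 was 6.60 at a pseudocount of 0.1, 7.06 with voom on the recovered reads, and 7.07 with voom on genes of at least 10 reads, a setting chosen after seeing the data. A larger pseudocount shrinks the change of a gene that is low in 1 group.

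Without the fold threshold, the counts higher and lower were 2 and 3 for the members, 1 and 10 for GPI anchor genes, 14 and 5 for inducers and proteases, and 3983 and 4978 for all genes. Tested against a fold of 2 with treat, they were 568 and 581 for all genes. With voom on genes of at least 10 reads, 3 members, 13 other complement genes and 3301 of all genes were higher, and 2390 of all genes lower, since more low genes were tested. The lower GPI anchor genes were 2 at a pseudocount of 0.1 and under both voom fits. The lower inducers and proteases were 0 in the main setting, 1 at a pseudocount of 0.1, 2 under both voom fits, and 0 to 1 when a library was left out, with 1 without sh-NC replicate 1 or sh-LDB1 replicate 2.

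Scaling to equal sums gave a ratio, sh-LDB1 over sh-NC, of 2.918 for the components and 0.803 for the membrane regulators, in place of 2.588 and 0.712. Among all genes it gave 1602 higher and 1001 lower, so that 38.5% of the calls were lower, compared with 52.0% of 1264 and 1371.

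The replicate numbers did not pair the libraries, as the correlation of the deviations of same-numbered libraries was 0.02. With the replicate number as a block, 1274 genes were higher and 1386 lower. Of the named genes, only CSMD1 went from passing the adjusted p to not passing it under the block. With 2 libraries per group the spread of a single gene is estimated mostly from all genes, and the members below 0.5 FPKM rested on at most 49 reads per library in sh-NC.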
